A study of Mus musculus with 40 samples.

Results

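The cerebellum arrays of a mouse brain study are described here, with mice that carry alanine (Ala) compared with mice that carry threonine (Thr) at residue 92 of the Dio2 protein, the type 2 deiodinase. They were chosen by their label, which names the cerebellum as the region, and they number 8 of the 40 arrays, 4 for each genotype. The series also covers amygdala, hippocampus, prefrontal cortex and striatum, and its stated aim was to profile brain areas and how they differ between the mice. The 4 Ala arrays, numbered 9 to 12, carry the genotype label Ala92D2HY, and the 4 Thr arrays, numbered 13 to 16, carry Thr92D2HY. All mice were on a C56BL/6 background as the labels spell it, were 8 to 10 weeks old, received no treatment named in the labels and ate chow. Total RNA was labelled with biotin and hybridised to Affymetrix arrays. No label links an array to an animal, so a p-value below measures only how far these arrays scatter, and that scatter may be technical. They also give no sex, and the Y-linked genes Eif2s3y, Kdm5d and Uty were above the background of the array on all 8.

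The type 2 deiodinase removes an iodine atom from thyroxine and so makes T3, the form of thyroid hormone that binds the nuclear receptors encoded by Thra and Thrb. In the brain it is made mainly by astrocytes and tanycytes, and neurons take up the T3 that leaves these cells. The developing cerebellum is a classic target of the hormone, which drives the growth of Purkinje cell dendrites and the inward migration of granule cells. The enzyme is an endoplasmic reticulum protein that is ubiquitinated once it has bound its substrate, and the alanine form is a common human variant.

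Because the genotype is defined at this gene and its own level is the first readout, the 250 bases before the Dio2 start are shown, from the minus strand at chr12:90739039-90739288 of GRCm38.p6 as RefSeq gives it. Capitals mark a cAMP response element, TGACGTCA, searched on both strands.

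Dio2: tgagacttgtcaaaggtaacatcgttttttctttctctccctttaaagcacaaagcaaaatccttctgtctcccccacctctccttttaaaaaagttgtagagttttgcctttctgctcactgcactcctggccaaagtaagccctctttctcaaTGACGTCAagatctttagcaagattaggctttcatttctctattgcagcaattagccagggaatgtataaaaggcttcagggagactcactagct

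This element begins 95 bases before the start and was the only match in the window. The same letters occur in 508 of 32851 upstream windows of the same table, or 1.55%. A match describes the letters alone, and no binding was measured.

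Levels are the deposited log2 signals, and a difference is Ala minus Thr in log2 units with the standard error (SE) of a limma fit to these 8 arrays, so that 1 unit is a factor of 2. Of 19505 named genes, 13736 were bright enough to test, and 9728 of those exceeded the median of the negative control rows, log2 6.20 to 6.35, in at least one genotype. Levels near or below that range are close to background. Array medians lay between 6.26 and 6.32 and the correlations between pairs of arrays, across all tested genes, between 0.986 and 0.992. The cerebellar label was borne out on all 8 arrays by Pcp2, a Purkinje cell gene at 17.34 to 18.29, and Gabra6, a granule cell receptor subunit at 17.51 to 18.05. Of the 31 gene lists used below, with 748 different genes, 593 genes were measured.

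In 3 arrays, groups of transcripts from outside the cerebellar cortex or from one stimulus response stood apart from the other arrays. The array Ala 12 had 139 genes more than 1 unit above the mean of the other 7 arrays, against 18 to 49 for each of the others, and forebrain genes led them. Camk2a, a kinase of forebrain excitatory synapses, was at 14.94 there and at 11.34 to 13.20 elsewhere. Ala 10 and Ala 12 were low in choroid plexus transcripts, and Thr 14 to a smaller degree. Ala 10 was also low in immediate early genes. Each of these is described with its genes below.

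No gene was called between the genotypes. Of 13736 genes, 0 (0%) had an adjusted p under 0.05 in limma with Benjamini-Hochberg adjustment, and the smallest adjusted p was 0.913. At an unadjusted p under 0.05 there were 540 genes (3.93%), 298 higher in Ala (2.17%) and 242 lower (1.76%), where uniform p-values would give 687. The 4 values of Ala and the 4 of Thr did not overlap for 364 genes (2.65%), with Ala above Thr for 188 (1.37%) and below for 176 (1.28%). Positive differences made up 51.5% of the genes, with a median of 0.01.

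The 8 arrays bounded most differences in signal to less than a factor of 2. The median SE was 0.188 and the median absolute difference 0.122. For 13414 genes, or 97.7%, the 95% confidence interval of the difference lay within 1 log2 unit of 0. Only 14 genes had a difference beyond 1 unit, and 4 of them, Ttr, Kl, Kcnj13 and Kcne2, are in the choroid plexus list. Of the rest, Car12, Nrgn, Sst, Slc7a3 and Khdrbs2 differed by -0.73, 0.49, 0.24, 0.65 and 0.77 without Ala 12. Glra1, Mid1, Entpd4, Ulk4 and Cd59a stayed beyond 1 unit without it. The intervals cover the spread between arrays and are not corrected for the number of genes. For 3759 of the 13736 genes both genotype means were under the negative control medians, where differences depend on background. There a narrow interval bounds the signal, not the transcript.

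**Figure D1:**
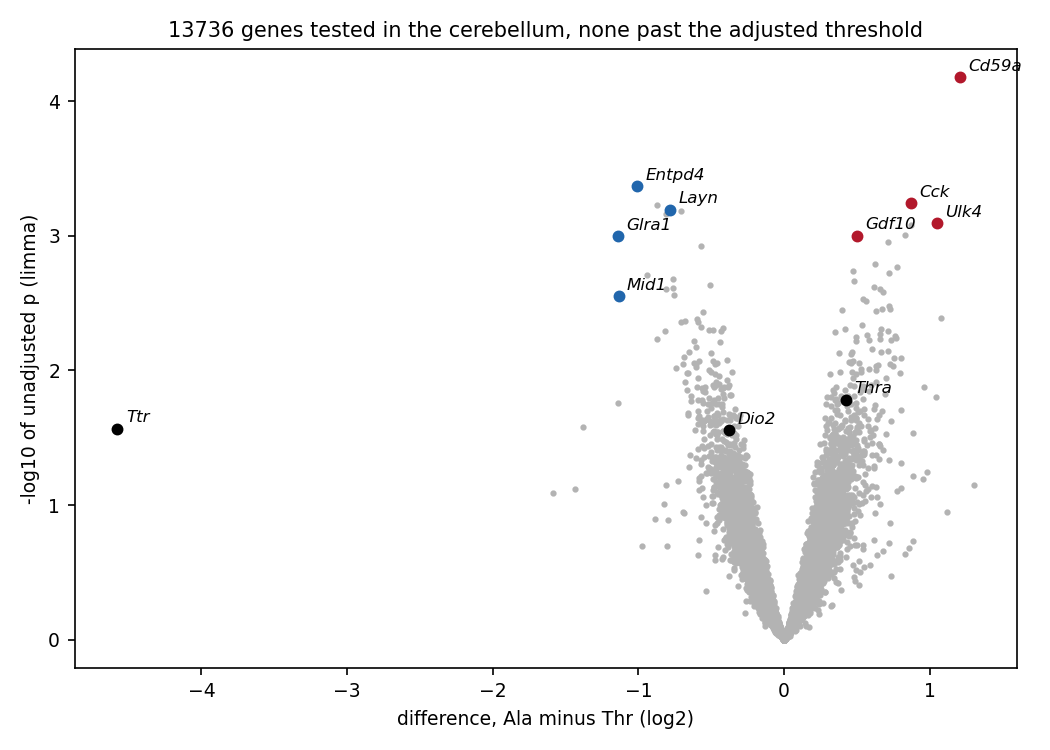
Difference between genotypes (Ala minus Thr, log2, horizontal axis) against the -log10 of the unadjusted limma p (vertical axis) for the 13736 genes tested in the cerebellum, each grey point being 1 gene. Labelled points are genes named in the text, with Cd59a at the smallest p and Ttr, at -4.58, far to the left with its lowest signals in Ala 10 and Ala 12.

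Cd59a, which encodes a cell surface inhibitor of the complement membrane attack complex, had the smallest p. Its log2 signal was 11.31, 10.79, 10.30 and 9.91 in Ala 9 to 12 and 9.19, 9.35, 9.29 and 9.65 in Thr 13 to 16. Every Ala array was above every Thr array, although Ala 12 and Thr 16 lay close together. The difference was 1.21 ± 0.23 (SE, 4 against 4 arrays), a ratio of 2.31, with an interval from 0.72 to 1.70 and an adjusted p of 0.913 in limma. Without Ala 12, the Ala array nearest to Thr, it was 1.43 and was called, with an adjusted p of 0.0271 in limma. Leaving out the nearest array must enlarge the difference, so the call is no separate support. In the fit without Ala 12, 2 genes (0.0146%) were called.

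Entpd4, a nucleoside diphosphatase of the Golgi and lysosome, was the other gene called there and was lower in Ala. Its signal was 13.90, 13.76, 14.69 and 15.08 in the Ala arrays and 15.73, 14.99, 15.46 and 15.28 in the Thr arrays. The groups met at Ala 12, which was above Thr 14, while the other 3 Ala arrays were below all Thr arrays. The difference was -1.01 ± 0.23 with all arrays and -1.25 without Ala 12, with an adjusted p of 0.0437 in limma. Ala 12 was again the Ala array nearest to Thr, so this call has the same limit.

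Mid1, an X-linked ubiquitin ligase that binds microtubules, had 2 levels among the Ala arrays. Ala 9 and Ala 11 were at 9.07 and 8.66, and Ala 10 and Ala 12 at 10.65 and 10.49. The Thr arrays were at 10.72, 11.04, 10.80 and 10.85, so the groups did not overlap but Ala 10 and Ala 12 lay just under the Thr range. The difference was -1.14 ± 0.33. Leaving out Ala 10 and Ala 12, a pair chosen after the data were seen for their choroid plexus transcripts, gave -1.99 and the only called gene of that fit (0.00728%), with an adjusted p of 0.000156 in limma. Those 2 arrays were thus also the 2 whose Mid1 level was near that of Thr, so leaving them out must enlarge the difference.

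Zfp976, a zinc finger gene, was at 5.75, 5.70, 5.75 and 6.00 in Ala and 7.43, 6.59, 5.91 and 6.53 in Thr. All Ala values were close together, and only Ala 12 and Thr 15 crossed. The difference was -0.82 ± 0.25, and the Ala mean was under the negative control medians.

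Glra1, the glycine receptor subunit of brainstem and spinal inhibitory synapses, was lower in Ala apart from 1 Thr array. It was at 7.07, 7.52, 7.83 and 7.34 in Ala and at 8.72, 9.14, 7.47 and 8.99 in Thr. Thr 15 fell among the Ala values, and the other Thr arrays were above all of them. The difference was -1.14 ± 0.29, and without Thr 15 it was -1.51 and called, with an adjusted p of 0.0274 in limma. Leaving out the Thr array nearest to Ala must enlarge the difference, so that call is no separate support. Of the 10 measured genes of the brainstem and spinal list, which holds Glra1, 5 had positive and 5 negative differences. Both genotype means were under the negative control medians for 6 of the 10. Slc6a5, the glycine transporter of the same neurons, differed by -0.38 ± 0.20.

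Among the other genes with the smallest p in each direction, Gdf10 is the one whose expression in the cerebellum is known for a single cell type, the Bergmann glia. It was at 12.82, 12.95, 12.65 and 13.00 in Ala and at 12.36, 12.49, 12.31 and 12.25 in Thr. All Ala arrays were above all Thr arrays, and both groups were tight. The difference was 0.50 ± 0.13, a ratio of 1.42, and 0.45 without Ala 12.

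Layn, a hyaluronan-binding membrane protein, was dim, at 5.35, 5.50, 5.43 and 5.39 in Ala and 6.55, 6.00, 6.10 and 6.16 in Thr. The groups were apart by more than the spread of either, but most values were under the negative control medians. The difference was -0.78 ± 0.19.

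Cck, the gene of the neuropeptide cholecystokinin, was at 12.06, 12.17, 11.32 and 12.52 in Ala and at 11.27, 11.41, 10.83 and 11.08 in Thr. It was highest in Ala 12, the array with forebrain transcripts, and Ala 11 fell within the Thr range. The difference was 0.87 ± 0.21, with 0.70 left without Ala 12 and 0.54 without Ala 10 and Ala 12.

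The remaining genes of these 2 sets of 10 fall into bright and dim ones. Reep6, which shapes endoplasmic reticulum membranes, differed by 0.71 ± 0.18. Stmn4, a tubulin-binding stathmin of neurons, and Ypel5 differed by 0.62 ± 0.17 and 0.47 ± 0.13, both without overlap. Among the lower genes, N4bp2 differed by -0.70 ± 0.17, the MAP kinase phosphatase gene Dusp16 by -0.57 ± 0.15, the synaptotagmin gene Syt12 by -0.51 ± 0.14 and Zfp975 by -0.94 ± 0.26, none of them with overlap. Ulk4, Qpct, Ccdc192 and Vmn1r10 had both genotype means under the negative control medians, with differences of 1.05, 0.87, 0.83 and -0.87. One genotype mean was under them for Ttc5, Gcnt1 and Cavin4, with differences of 0.78, -0.81 and -0.76. Adjusted p in limma was 0.999 for every gene named here other than Cd59a, with all 8 arrays.

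**Figure D2:**
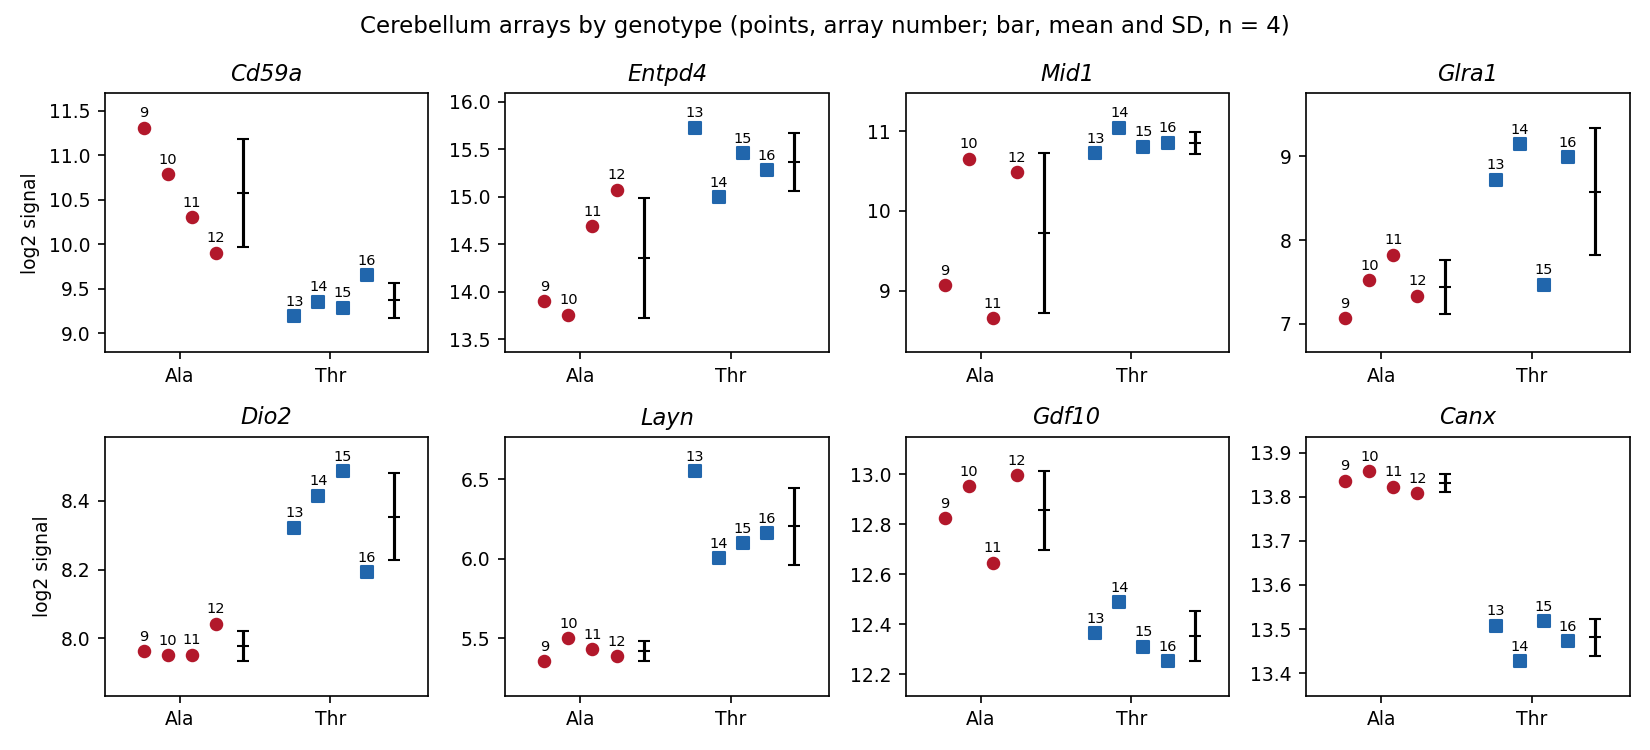
Log2 signal (vertical axis) of 8 genes on each cerebellum array, Ala in red and Thr in blue, with array numbers from the labels, and bars for the mean and SD of 4 arrays. Cd59a, Gdf10 and Canx are higher and Dio2, Layn and Mid1 lower on every Ala array, Entpd4 and Glra1 each overlap through 1 array, and Ala 10 and Ala 12 sit near the Thr level of Mid1.

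The genes that make, move and sense thyroid hormone are next. Dio2 itself was at 7.96, 7.95, 7.95 and 8.04 in Ala and at 8.32, 8.42, 8.49 and 8.19 in Thr. The 4 Ala arrays lay close together and below every Thr array. The difference was -0.38 ± 0.16, a ratio of 0.770, with an interval from -0.71 to -0.05 and an unadjusted p of 0.0277 that does not survive adjustment (0.999 in limma). It did not depend on the arrays that stood apart, at -0.40 both without Ala 12 and without Ala 10 and Ala 12. The array reads the transcript, not the enzyme's activity, and in this bulk tissue fewer cells of a type and less RNA per cell cannot be told apart, for Dio2 or for any gene below.

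The other deiodinase genes did not pass the filter on dim genes, with Dio1 at 3.98 to 4.49 and the inactivating Dio3 at 2.73 to 3.35. Thra was at 13.82, 13.62, 13.37 and 13.72 in Ala and at 13.62, 13.36, 12.94 and 12.91 in Thr. The groups overlapped through Thr 13, and Thr 15 and Thr 16 were the lowest. The difference was 0.43 ± 0.16, while Thrb differed by 0.27 ± 0.27, a value that turned to -0.05 without Thr 15.

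Of the 17 measured genes of hormone transport, activation and receptors, 11 had a positive difference. The list median was 0.12 against 0.01 over all genes, and 0.03 without Ala 10 and Ala 12. One gene was higher and 1 lower at an unadjusted p under 0.05, or 5.88% each against 2.17% and 1.76% of all genes. Dio2 was the 1 without overlap, or 5.88% lower against 1.28%. The thyroxine transporter gene Slco1c1 differed by -0.14 ± 0.16, and by -0.04 without Ala 10 and Ala 12. Slc3a2, the heavy chain of an amino acid transporter that also carries thyroid hormone, differed by 0.25 ± 0.15, by 0.16 without Ala 12 and by 0.05 without Ala 10 and Ala 12.

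Genes that T3 raises in brain had differences in both directions. Of 31 measured genes, 3 were higher and 1 lower at an unadjusted p under 0.05, or 9.68% and 3.23% against 2.17% and 1.76% of all genes. With all arrays 12 had a positive difference and the median was -0.03. Without Ala 12 there were 19 positive differences and a median of 0.03. The corepressor gene Hr was at 6.13, 6.02, 6.06 and 5.95 in Ala and at 6.18, 6.21, 6.23 and 6.04 in Thr. These ranges overlapped and lay at background, with a difference of -0.13 ± 0.17, or -0.07 without Ala 10 and Ala 12. Klf9, a transcription factor gene that T3 switches on directly, was at 13.51 to 13.79 in Ala and 13.61 to 13.96 in Thr and differed by -0.11 ± 0.12.

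The members with the smallest p went in both directions. Ptgds, prostaglandin D synthase of meninges, choroid plexus and oligodendrocytes, was at 17.33, 16.48, 16.21 and 16.56 in Ala and at 16.08, 15.96, 15.16 and 16.43 in Thr. Thr 16 reached into the Ala range, and the difference was 0.73 ± 0.23. Bcl6, a transcriptional repressor, was at 9.45, 8.94, 9.54 and 9.40 in Ala and at 9.61, 10.06, 9.60 and 10.81 in Thr. The groups did not overlap but came close, and the difference was -0.69 ± 0.23. Nrgn, neurogranin of forebrain neurons, stood at 10.03 in Ala 12 and at 7.02 to 8.24 on the other arrays. It differed by 1.04 ± 0.39, by 0.49 without Ala 12 and by 0.28 without Ala 10 and Ala 12.

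Of 14 measured genes that T3 lowers, 9 had a positive difference, with a median of 0.04, or 0.15 without Ala 10 and Ala 12. Tubb2b, a tubulin gene of growing neurites, was at 10.23, 10.57, 10.46 and 10.64 in Ala and at 10.23, 9.89, 9.68 and 9.94 in Thr. Ala 9 and Thr 13 were level, and the others were apart by genotype. The difference was 0.54 ± 0.16, and Cirbp, a cold-induced RNA-binding protein, differed by 0.46 ± 0.16. Tubb2b and Cirbp, both higher, and Dio2, lower, were the 3 list members at an unadjusted p under 0.05. They made up 14.3% and 7.14% of the list, against 2.17% and 1.76% of all genes. None of the 3 had groups that overlapped, where 1.37% and 1.28% of all genes had none in these directions.

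The machinery that ubiquitinates and recycles the deiodinase showed no such member. Of its 12 measured genes, 6 had a positive difference, 0 had an unadjusted p under 0.05, and the median was -0.00094, or 0.04 without Ala 12. Marchf6, a ubiquitin ligase of the endoplasmic reticulum that marks the enzyme, was at 13.51, 13.45, 13.37 and 13.56 in Ala and at 13.57, 13.64, 13.61 and 13.67 in Thr. Its groups narrowly did not overlap, with a difference of -0.15 ± 0.11. Rbx1, a ring finger subunit of cullin ligases, and Ufd1, which helps extract proteins from the endoplasmic reticulum, differed by 0.26 ± 0.14 and 0.29 ± 0.16, and Rbx1 by 0.16 without Ala 10 and Ala 12.

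The unfolded protein response, by which cells answer an excess of misfolded protein in this compartment, had a level close to 0 on every array, from -0.04 to 0.04 as the mean deviation of its 32 measured genes. Of these, 1 was higher and 1 lower at an unadjusted p under 0.05, or 3.12% each against 2.17% and 1.76% of all genes. With all arrays 14 had a positive difference and the median was -0.03. Without Ala 12, 17 were positive and the median was 0.03. Canx, the membrane chaperone calnexin, was at 13.84, 13.86, 13.82 and 13.81 in Ala and at 13.51, 13.43, 13.52 and 13.47 in Thr. The groups were far apart for their spread, with SDs of 0.02 and 0.04. Its difference was 0.35 ± 0.11, a ratio of 1.27, and it was the same without Ala 10 and Ala 12.

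The stress-induced members did not follow Canx. Hspa5, the luminal chaperone BiP, differed by -0.22 ± 0.13, with Thr 15 and Thr 16 the highest arrays. Ddit3, the transcription factor CHOP, differed by -0.06 ± 0.16, or -0.19 without Ala 10 and Ala 12, and Xbp1 by -0.32 ± 0.17. Atf4 was at 11.89, 12.38, 11.81 and 12.78 in Ala and at 11.78 to 11.94 in Thr. Ala 10 and Ala 12 were above all the others, and its difference of 0.36 ± 0.18 became -0.01 without them. The asparagine synthetase gene Asns, an ATF4 target, followed the same arrays, with 14.68 in Ala 10, 14.78 in Ala 12 and 13.53 to 14.14 on the rest. Its difference went from 0.43 ± 0.20 to -0.02 without those 2 arrays. Slc7a3, an arginine transporter gene, was also highest in Ala 12 and Ala 10, at 9.20 and 8.56, against 4.58 to 6.62 elsewhere.

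Among 19 measured antioxidant genes, 9 had a positive difference and the median was -0.04, or 0.0029 without Ala 12. Srxn1, sulfiredoxin, was at 9.16, 8.85, 9.07 and 8.43 in Ala and at 9.35, 9.18, 9.22 and 9.22 in Thr. The groups did not overlap, but Ala 9 was only just below Thr 14 and Ala 12 was the lowest by far. The difference was -0.37 ± 0.17, -0.22 without Ala 12 and -0.13 without Ala 10 and Ala 12.

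Among the cell types of the cerebellar cortex, Purkinje cell genes had mostly positive differences. Of 20 measured genes 14 had a positive difference, with a median of 0.17, or 0.25 without Ala 12. There were 2 higher (10%, against 2.17% of all genes) and 0 lower at an unadjusted p under 0.05. The level of the list was 0.29, 0.18, -0.06 and -0.14 in Ala 9 to 12 and -0.14, 0.11, -0.12 and -0.12 in Thr 13 to 16. Ala 9, Ala 10 and Thr 14 were high and the others low, so the groups overlapped.

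Pcp2, which modulates G protein signalling in Purkinje cells, was at 18.29, 18.05, 17.78 and 17.86 in Ala and at 17.73, 17.88, 17.34 and 17.61 in Thr. Only Thr 14 reached into the Ala values, and the difference was 0.36 ± 0.13. Calb1, the calcium buffer calbindin, was at 16.12, 16.18, 16.19 and 15.86 in Ala and at 15.99, 15.78, 15.46 and 15.84 in Thr, with a difference of 0.32 ± 0.13. Thr 13 was above Ala 12, and the others were apart by genotype. Slc1a6, the Purkinje cell glutamate transporter, differed by 0.32 ± 0.16.

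Granule cell genes were level. Of 21 measured genes 10 had a positive difference, with a median of -0.02. Without Ala 12, 14 were positive and the median was 0.02. The level of the list stayed between -0.10 and 0.10 on all arrays. Gabra6 differed by -0.08 ± 0.13, or 0.02 without Ala 12. Pax6, a transcription factor of the granule cell lineage, was at 12.49, 12.36, 12.13 and 12.43 in Ala and at 12.12, 11.91, 12.03 and 11.93 in Thr. It had the only groups without overlap in the list, or 4.76% higher against 1.37% of all genes. The margin between Ala 11 and Thr 13 was narrow, and Pax6 differed by 0.36 ± 0.13.

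Of 18 measured interneuron genes, 3 were lower and 1 higher at an unadjusted p under 0.05, or 16.7% and 5.56% against 1.76% and 2.17% of all genes. With all arrays 13 had a negative difference and the median was -0.11. Without Ala 12, 0 were higher and 1 lower at that threshold, where 275 and 205 of all 13736 genes were. Without Ala 10 and Ala 12, 8 were positive and the median was -0.07. Prkcd, a protein kinase C gene, was at 11.49, 11.41, 11.48 and 10.92 in Ala and at 11.47, 11.84, 12.10 and 11.84 in Thr. Ala 12 was the lowest and Thr 13 lay among the Ala arrays. The difference was -0.49 ± 0.16, or -0.35 without Ala 12. Ptprk, a receptor phosphatase, differed by -0.29 ± 0.13 without overlap, and Pax2, a transcription factor gene of interneuron precursors, by -0.56 ± 0.25 at a level under the negative control medians. Pax2 was lowest in Ala 10 and Ala 12, at 4.71 and 5.10, and differed by -0.15 without them.

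Unipolar brush cells are excitatory interneurons of the granular layer, and 5 of their 7 measured genes had a negative difference. Their median was -0.10, or -0.58 without Ala 12 and -0.29 without Ala 10 and Ala 12. Eomes, their lineage factor, was at 8.67, 6.89, 7.34 and 7.67 in Ala and at 8.21, 8.09, 7.83 and 9.03 in Thr. Ala 9 was among the highest, the groups overlapped, and the difference was -0.65 ± 0.31, or -0.29 without Ala 10 and Ala 12. Otx2 was at 8.39, 8.08, 8.05 and 8.35 in Ala and at 8.80, 8.47, 8.56 and 9.45 in Thr. No Ala array reached the Thr values, and the difference was -0.60 ± 0.20. Otx2 is also a choroid plexus gene, but it was not lowest in the 2 arrays low in Ttr, and its difference was again -0.60 without them. The 9 measured genes of the cerebellar nuclei had a median of 0.17 that turned to -0.13 without Ala 12, and the list holds Tbr1 and Lhx2, both highest in that array.

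Glial and vascular lists had medians from -0.05 to 0.13. Bergmann glia and astrocyte genes had a positive difference in 15 of 22, with a median of 0.11. Gdf10 was their only member at an unadjusted p under 0.05, or 4.55% higher against 2.17% of all genes. Slc1a3 and Slc1a2, the glial glutamate transporters, differed by 0.16 ± 0.20 and 0.16 ± 0.22, and by 0.34 and 0.06 without Ala 12. Hopx, with the smallest p of the list after Gdf10, went the other way, at -0.32 ± 0.16, or -0.41 without Ala 10 and Ala 12. In 19 measured oligodendrocyte genes the median was 0.03, in 16 of microglia 0.13, in 20 of vessels -0.01 and in 18 of meninges and fibroblasts -0.05. None of the oligodendrocyte, microglia or vessel genes had an unadjusted p under 0.05. Both genotype means were under the negative control medians for 8 of the 16 microglia genes, 5 of the 20 vessel genes and 6 of the 18 meningeal genes. The collagen gene Col1a1 and Igfbp2 of the meninges differed by -0.46 ± 0.21 and -0.50 ± 0.23, and Igfbp2 by -0.12 without Ala 10 and Ala 12. Without those 2 arrays the medians were 0.04 for Bergmann glia and astrocytes, -0.06 for oligodendrocytes, 0.01 for microglia, -0.06 for vessels and 0.03 for meninges and fibroblasts.

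**Figure D3:**
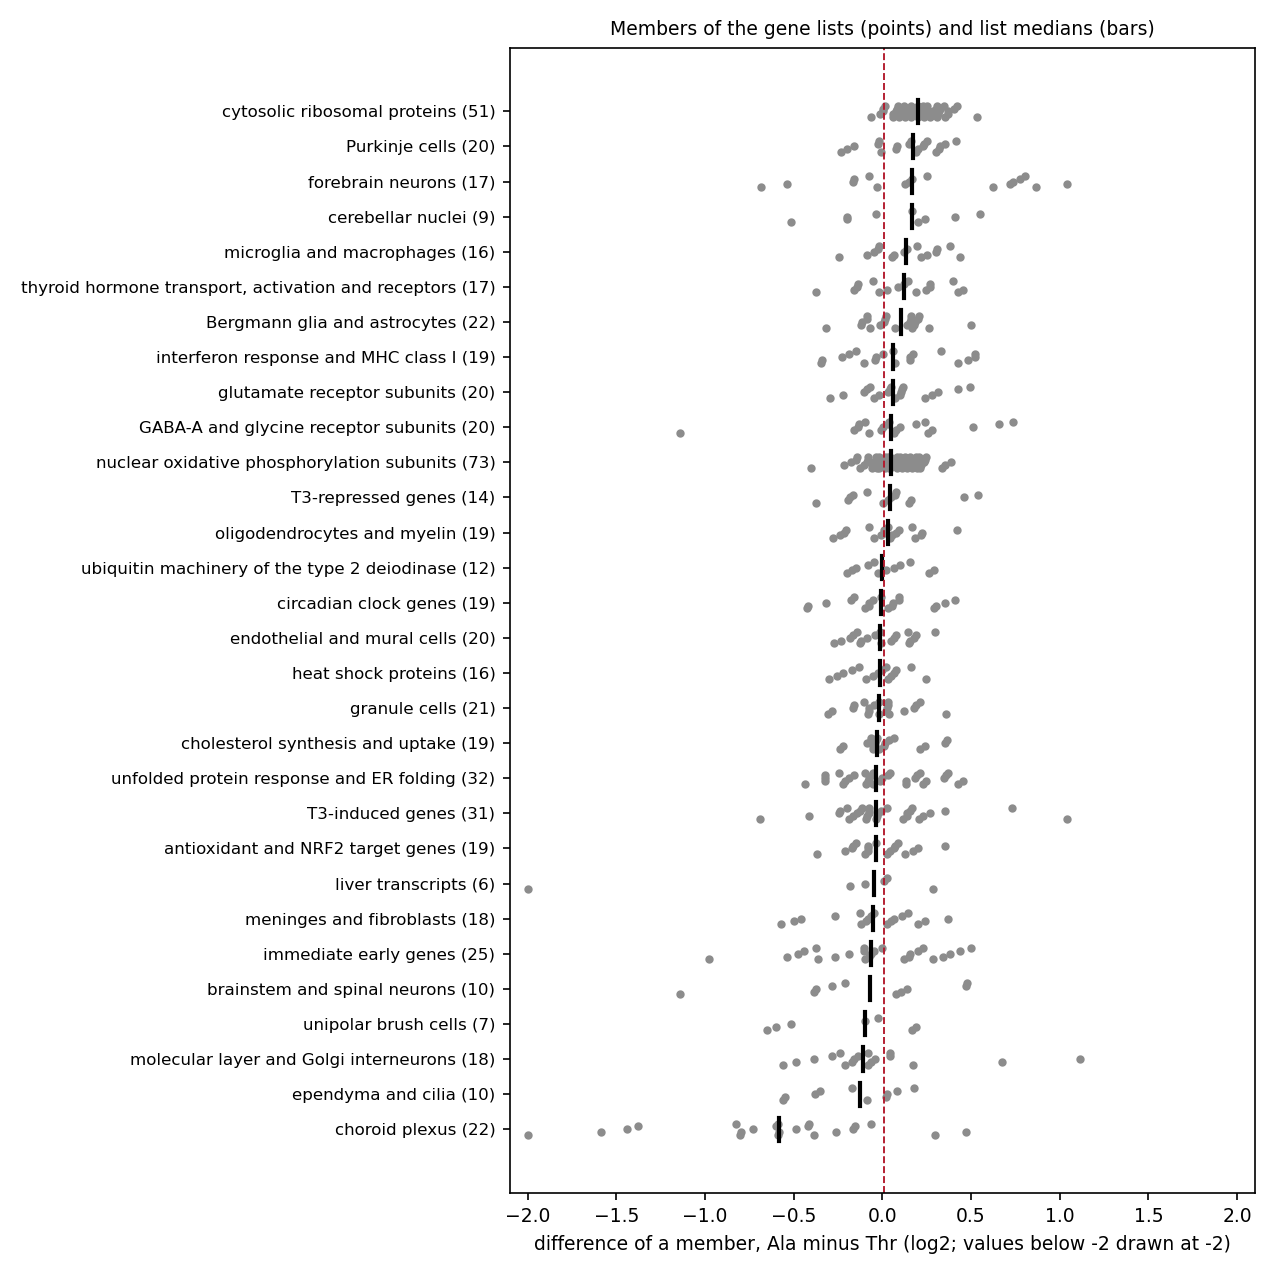
Difference (Ala minus Thr, log2, horizontal axis) of each measured member of 30 gene lists with at least 5 measured genes, as grey points, with list medians as black bars and the median of all 13736 genes as a dashed red line. Most medians lie near the dashed line, ribosomal proteins are almost all to its right with a median of 0.20, and choroid plexus, at -0.59, is far to its left.

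Transcripts of the choroid plexus, the secretory epithelium of the ventricles, also of the one beneath the cerebellum, varied widely between single arrays. Ttr, which encodes the thyroxine carrier transthyretin, was at 17.60, 7.58, 17.45 and 6.07 in Ala and at 17.48, 14.47, 17.49 and 17.57 in Thr. In Ala 12 it was at background, and in Ala 10 it was low but above the negative control medians. In Thr 14 it was intermediate, and in the other 5 arrays it was level. The SD was 6.21 among the Ala and 1.52 among the Thr arrays. The difference was -4.58 ± 1.89 with all arrays and 0.77 without Ala 10 and Ala 12.

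The rest of the list followed Ttr in part. The level of its 22 measured genes was 0.71, -1.27, 0.39 and -1.29 in Ala 9 to 12 and 0.62, -0.62, 0.55 and 0.91 in Thr 13 to 16. Both genotype means were under the negative control medians for 7 of the 22. Besides Ttr, 12 of 21 genes had their lowest values in Ala 10 and Ala 12. With all arrays 20 of 22 differences were negative and the median was -0.59. Of the 22, 4 were lower at an unadjusted p under 0.05, or 18.2% against 1.76% of all genes. Without Ala 10 and Ala 12 the median was 0.16 and 12 of 22 were positive.

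Kl, the gene of the ageing-related protein klotho, was at 8.11, 3.86, 7.98 and 3.76 in Ala and at 8.31, 5.40, 7.73 and 8.61 in Thr. Kcnj13, an inward-rectifier potassium channel gene of the epithelium, was at 10.61, 7.20, 9.95 and 5.93 in Ala and at 10.24, 8.09, 10.38 and 10.74 in Thr. In both genes Ala 10, Ala 12 and Thr 14 were the 3 lowest arrays. Their differences were -1.59 ± 0.86 and -1.44 ± 0.76, and 0.53 and 0.42 without Ala 10 and Ala 12. Of 10 measured genes of ciliated ependyma 4 had a positive difference, with a median of -0.13 and list levels from -0.27 in Ala 12 to 0.23 in Thr 16. Both genotype means were under the negative control medians for 7 of these 10. Of 6 measured liver transcripts, which include Ttr, 3 had a positive difference, and of 4 measured blood cell genes 3 did. Both means were under those medians for 5 of the 6 and 2 of the 4. The part of the choroid plexus carried with the tissue in these differences was not tested.

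Forebrain transcripts set Ala 12 apart. The level of 17 measured forebrain genes was 1.03 in Ala 12 and -0.34 to -0.02 on the other 7 arrays. Gabra5, a GABA-A receptor subunit of hippocampal pyramidal cells, was at 10.48 in Ala 12 and at 5.10 to 6.85 elsewhere. Tbr1, a transcription factor of cortical projection neurons, was at 9.23 there and at 4.74 to 7.25 elsewhere, and Sst, the somatostatin gene, at 12.82 against 7.64 to 10.20. Among these, only Tbr1 is in the forebrain list, and it is also in the lists of unipolar brush cells and cerebellar nuclei. Sst is in the cerebellar interneuron list and Gabra5 in the GABA-A and glycine receptor list. With all arrays 5 of the 17 genes were higher at an unadjusted p under 0.05, or 29.4% against 2.17% of all genes, and the median was 0.17. Without Ala 12 the counts were 2 higher and 1 lower, where those of all 13736 genes were 275 and 205, and the median was -0.03. Gabra5 went from 0.74 ± 0.75 to -0.40 without that array and Tbr1 from 0.17 ± 0.67 to -0.73.

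**Figure D4:**
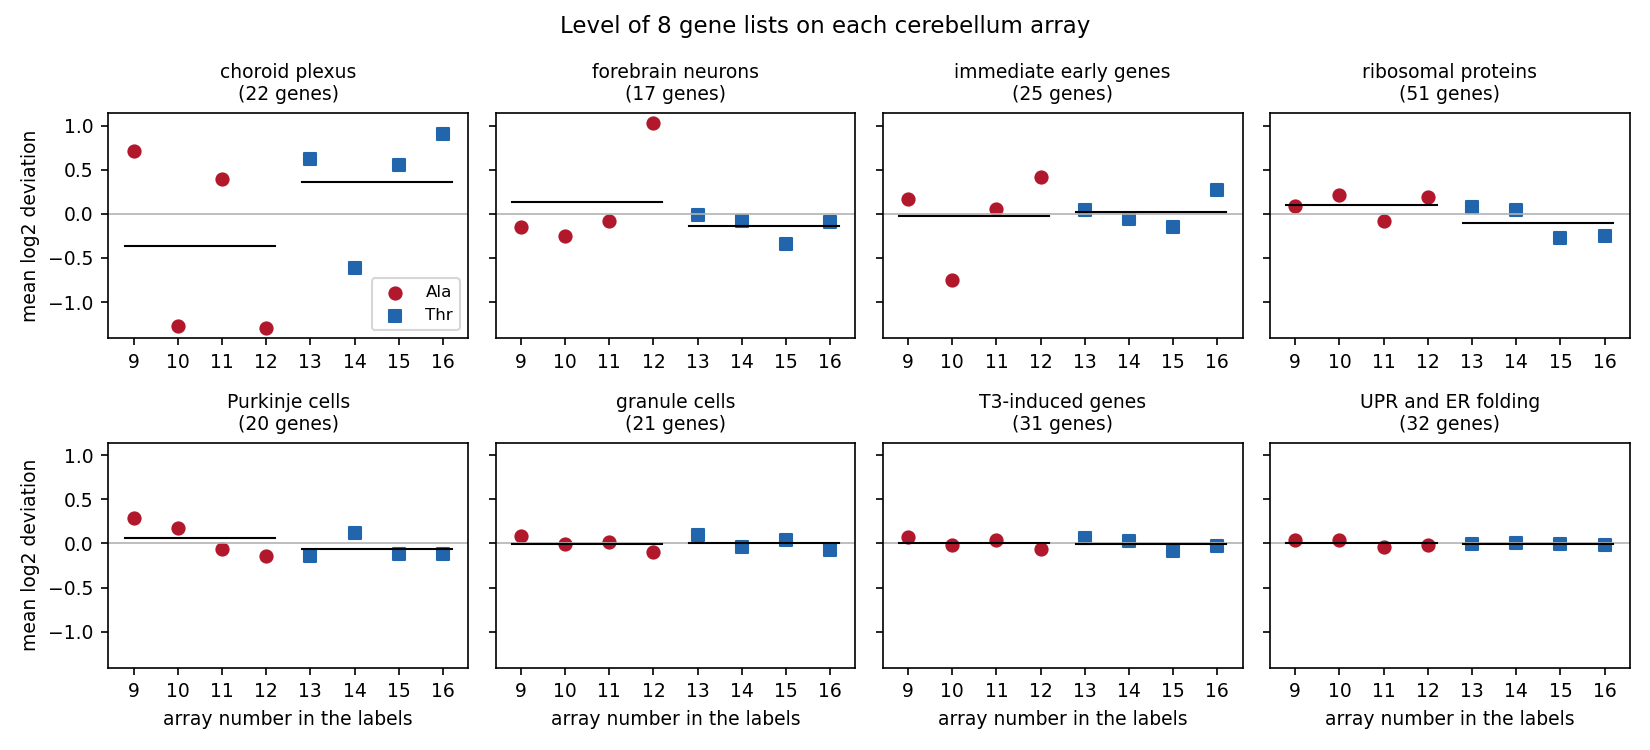
Mean log2 deviation from the 8-array mean (vertical axis) of 8 gene lists on each cerebellum array (horizontal axis, number in the labels), Ala as red circles and Thr as blue squares, with a line at each group's mean. Choroid plexus is low in Ala 10 and Ala 12 (-1.27 and -1.29), forebrain neurons are high in Ala 12 (1.03), immediate early genes are low in Ala 10 (-0.75), and the Purkinje, granule, T3 and UPR (unfolded protein response) lists stay near 0.

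Immediate early genes, which neurons switch on within minutes of stimulation, were low in Ala 10. The level of 25 genes was -0.75 there and -0.15 to 0.42 elsewhere. Their median difference was -0.06 with 10 positive, and 0.17 with 17 positive without Ala 10 and Ala 12. The orphan receptor gene Nr4a3 was at 6.59 in Ala 10 and at 9.89 to 11.74 elsewhere, and Nr4a2 was at 7.88 against 10.95 to 12.58. The phosphatase gene Dusp1 was at 11.11 against 13.07 to 14.85. Nr4a3 differed by -0.98 ± 0.73 and Nr4a2 by -0.54 ± 0.67, and both turned positive without Ala 10, at 0.16 and 0.51.

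Jun was the member with the smallest p, at 9.33, 8.95, 9.45 and 9.51 in Ala and 9.59, 9.83, 9.79 and 9.81 in Thr. All Ala arrays were below all Thr arrays, with Ala 10 the lowest. The difference was -0.44 ± 0.16, and -0.36 without Ala 10 and Ala 12. Heat shock protein genes had a median of -0.01 over 16 measured members, or -0.07 without Ala 10 and Ala 12, and 0 at an unadjusted p under 0.05.

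Cytosolic ribosomal protein genes had the largest share of positive differences of the 31 lists. Of 51 measured genes 49 had a positive difference, against 51.5% of all genes, and the median was 0.20. At an unadjusted p under 0.05, 10 were higher (19.6%, against 2.17% of all genes) and 0 lower. Groups were without overlap in 1 gene only, or 1.96% higher against 1.37% of all genes. Over the arrays the list was at 0.09, 0.21, -0.08 and 0.19 in Ala and at 0.08, 0.04, -0.28 and -0.25 in Thr. Thr 15 and Thr 16 were low, and Ala 11 was below Thr 13 and Thr 14. Ribosomal protein messengers are made in concert, so the 51 genes do not count as separate observations.

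Rpl23, a protein of the large subunit, was at 14.01, 14.16, 13.80 and 14.20 in Ala and at 13.83, 13.81, 13.07 and 13.32 in Thr. Thr 13 and Thr 14 were just above the lowest Ala array, and the difference was 0.54 ± 0.16. Rps28 of the small subunit had the lowest difference, -0.07 ± 0.17, or -0.15 without Ala 12. Without Ala 10 and Ala 12 the median of the list was 0.10, with 39 of 51 positive. Subunits of oxidative phosphorylation had a positive difference in 51 of 73, with a median of 0.05. Sdha of complex II, at 0.35 ± 0.16, was the 1 gene at an unadjusted p under 0.05, or 1.37% higher against 2.17% of all genes.

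Interferon-induced genes were split. Of 19 measured, 11 had a positive difference. An unadjusted p under 0.05 was seen for 3 higher and 1 lower, or 15.8% and 5.26% against 2.17% and 1.76% of all genes. The median was 0.06, or 0.12 without Ala 12. Ifit3, an antiviral effector gene, was at 9.25, 8.92, 8.40 and 8.58 in Ala and at 8.68, 8.19, 8.19 and 8.01 in Thr, overlapped through Thr 13 and differed by 0.52 ± 0.20. H2-K1, a class I histocompatibility gene, was at 9.02, 9.17, 9.19 and 9.01 in Ala and at 9.66, 9.40, 9.46 and 9.26 in Thr. Its groups did not overlap in the other direction, with a difference of -0.35 ± 0.15. Usp18, which damps interferon signalling, differed by 0.52 ± 0.19 at a level under the negative control medians.

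Of 19 clock genes 9 had a positive difference. Their median was -0.0070, or 0.11 without Ala 10 and Ala 12. There were 2 higher and 2 lower at an unadjusted p under 0.05, or 10.5% each against 2.17% and 1.76% of all genes. Without Ala 12, 0 were higher and 1 lower, where 275 and 205 of all 13736 genes were. The repressor gene Cry1 was at 8.97, 8.98, 9.11 and 8.80 in Ala and at 9.76, 9.24, 9.45 and 9.10 in Thr. Only Ala 11 and Thr 16 met, and the difference was -0.42 ± 0.17. Rorb, an orphan receptor gene, differed by -0.43 ± 0.16 without overlap and Nr1d1, the gene of REV-ERB alpha, by 0.41 ± 0.19. The hour of dissection is not among the labels. Of 19 genes of cholesterol synthesis and uptake 8 had a positive difference. Hsd17b7, at 0.35 ± 0.17, was the 1 at an unadjusted p under 0.05, or 5.26% higher against 2.17% of all genes.

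Receptor subunits of fast transmission come last. Of 20 measured GABA-A and glycine receptor genes, Glra1 was the only 1 at an unadjusted p under 0.05, or 5% lower against 1.76% of all genes. Gphn, the scaffold gephyrin, was the only 1 without overlap, or 5% higher against 1.37% of all genes. Gphn was at 12.62, 12.47, 12.52 and 12.36 in Ala and at 12.14, 12.33, 12.18 and 12.30 in Thr. The margin between Ala 12 and Thr 14 was small, and the difference was 0.25 ± 0.12. Of 20 glutamate receptor genes 2 were higher at that threshold, or 10% against 2.17% of all genes. Grik1, a kainate receptor subunit, was at 8.59, 8.74, 8.09 and 8.43 in Ala and at 7.88, 8.06, 7.93 and 7.98 in Thr, without overlap, and differed by 0.50 ± 0.17. Grm4, the metabotropic receptor of granule cell terminals, differed by 0.31 ± 0.13.

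The genotype difference in the cerebellum was then tested against the mean difference of the other 4 regions, in a limma fit to all 40 arrays. That fit treats the arrays as independent, and the labels do not say whether a mouse gave several regions. A difference of the same sign in the other regions is thus not known to be a separate observation. No gene was called (0%), and 319 genes, or 2.32%, had an unadjusted p under 0.05. Among genes described above, Cd59a, Mid1, Zfp976, Entpd4 and Glra1 had differences of the same sign in the other regions, at 1.37, -1.40, -1.06, -0.71 and -0.51, each more than 2 SE from 0. Cd59a, Mid1 and Zfp976 were set for naming because earlier results of these data called them in the average over regions. Their values in the other regions are thus no separate support. Layn, Gdf10, Qpct and Cck had values of 0.13, 0.05, -0.27 and -0.11 there.

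Layn had the smallest p of this test. Its difference was -0.78 in the cerebellum and 0.13 in the other regions, and the contrast was -0.91 ± 0.19, with an adjusted p of 0.420 in limma. Nipa1, a magnesium transporter gene, was at 9.54, 9.36, 9.39 and 9.63 in the Ala and at 10.21, 9.95, 9.96 and 9.75 in the Thr cerebellum arrays. The groups did not overlap, the difference was -0.49 ± 0.15, and the contrast was -0.60. Nudt17 differed by 0.72 ± 0.20 with a contrast of 0.86, at a level near background. Gabrq, the theta subunit of the GABA-A receptor, had a contrast of 1.27, and in the cerebellum it was at 3.94 to 6.47 in Ala and 4.10 to 4.96 in Thr. Its difference was 0.66 ± 0.38 in the cerebellum and -0.62 ± 0.18 in the other regions, so both contributed to the contrast. Both cerebellar means were under the negative control medians.

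Dio2 differed by -0.38 in the cerebellum and by 0.13 ± 0.11 in the other regions. The contrast was -0.51 ± 0.24, with an unadjusted p of 0.0378, and it did not pass adjustment. Canx differed by 0.35 in the cerebellum and by -0.05 elsewhere. Its contrast was 0.40 ± 0.21, with an unadjusted p of 0.0636 in limma. In Ttr the other regions differed by 1.82 ± 0.98, opposite in sign to the cerebellum with all arrays.

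**Figure D5:**
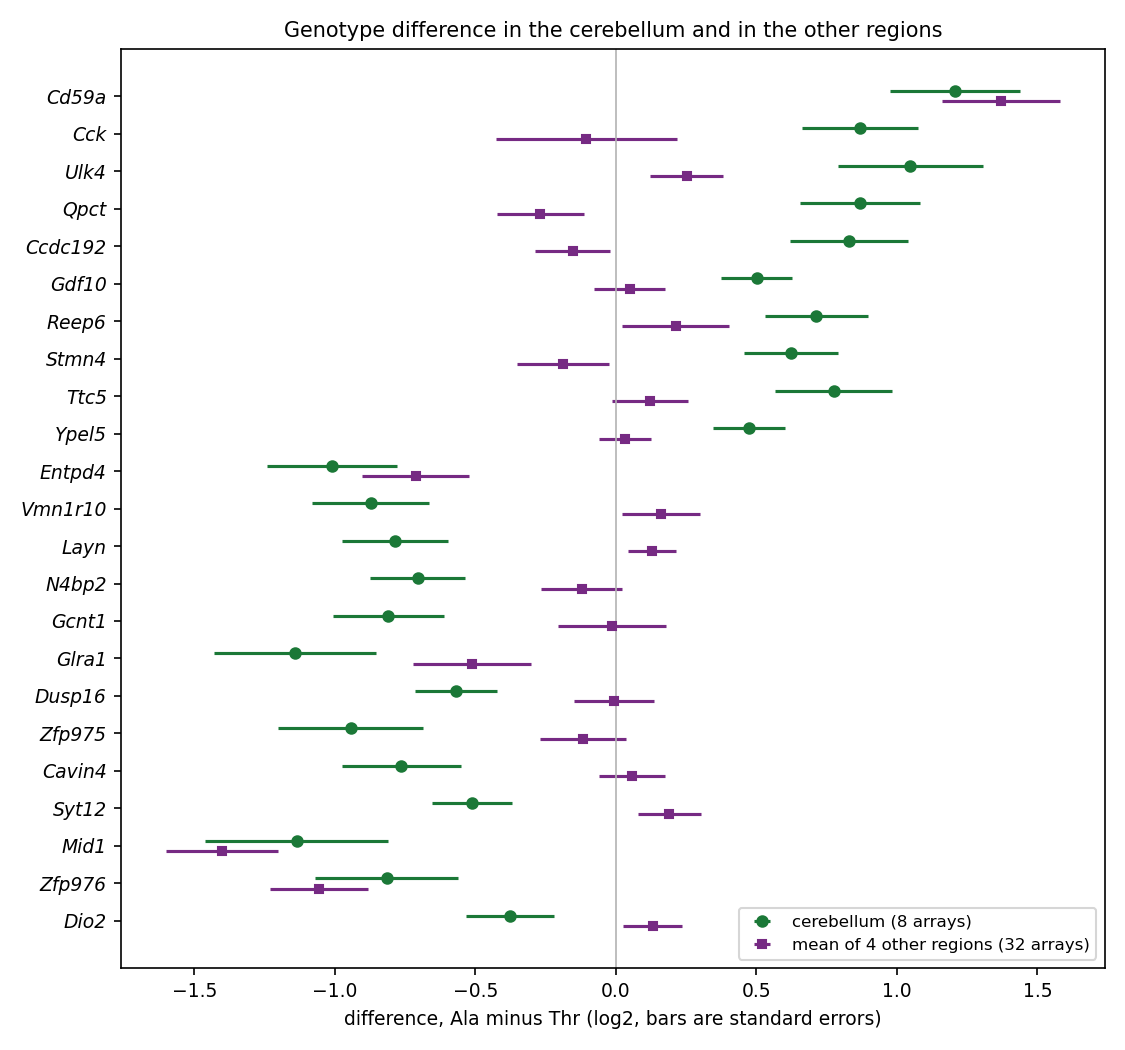
Difference between genotypes (Ala minus Thr, log2, horizontal axis, bars are SE) in the cerebellum (green, 8 arrays) and as the mean over the other 4 regions (purple, 32 arrays) for the 20 genes with the smallest p in the cerebellum and Mid1, Zfp976 and Dio2. Cd59a, Entpd4, Glra1, Mid1 and Zfp976 have both points on the same side by more than their SE, while Layn, at -0.78 and 0.13, and Dio2, at -0.38 and 0.13, do not. Earlier results of these data had called Cd59a, Mid1 and Zfp976 in the average over regions, so their match is no separate support.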

How the data were processed

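Log2 signals of 40 arrays were deposited by the authors. They were made with RMA, per the submitters' processing notes, and its version is not given in the sources used here. This method corrects background, scales arrays to one distribution and summarises probes, so no scaling was added and small differences may be compressed. Of 28846 rows, 6640 were controls, 19572 carried 1 gene symbol, all matched to GRCm38.p6 names, and 2634 had none. For 55 genes with several rows the brightest on average over the 8 arrays was used. Genes above the 30th percentile (log2 4.42) on at least 4 of the 8 arrays were tested.

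Ala and Thr, 4 arrays each, were compared with limma 3.58.1 in R 4.3.3 (lmFit, eBayes with a trend, 6 residual degrees of freedom, two-sided), with Benjamini-Hochberg adjustment over all genes and a threshold of 0.05. A list's level on an array is the mean deviation of its measured genes from their 8-array means. Named genes were the 10 with the smallest p per direction, the 10 with the largest SD within groups, a set list of 21 genes, 3 per gene list by p, 5 per direction in the contrast between regions, and the extremes of the ribosomal and oxidative phosphorylation lists. Others were named after their values were seen: Camk2a, Dusp1, Slc1a2, Slc1a3 and Lhx2, and the Y-linked genes. Members and lists were chosen with earlier results of these data known, and no list was tested. The set list holds Cd59a, Mid1 and Zfp976 because those results called them in the average over regions. The fit was tested on simulated data. The number of arrays limits the precision. Alternatives covered the arrays fitted, the spread estimate, array weights, scaling, the filter, the rows used, and leaving out each array.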

Additional observations from a re-analysis of the deposited data

Results flagged for a closer look

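In 324 groups of 4 arrays, those of the named genes and of the list levels in each genotype, 15 had 1 array apart from the other 3 by Dixon's ratio at its 95% critical value. That critical value flags about 1 in 20 unselected, independent groups. Many of the genes here were picked by p or by spread, and all groups share the same arrays. The rate is therefore no measure of how many chance would flag here. Ala 12 was the array apart in 4 of them. Its forebrain list level was 1.03, its Dio2 signal 8.04, above 7.95 to 7.96 on the other Ala arrays, and its Zfp976 signal 6.00, all high, and its Prkcd signal 10.92, low.

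Thr 13 was apart in 4 groups, with Sqle at 7.73 and Insig1 at 11.38, both genes of cholesterol synthesis and high, and Cdh5 at 7.22 and Jun at 9.59, both low. Thr 14 was apart with Ttr at 14.47 and the cochaperone gene Bag3 at 6.63, both low, and with a Purkinje list level of 0.11, high. Thr 15 was apart with Gabra5 at 5.10 and a GABA-A and glycine receptor list level of -0.36, both low. Ala 9 was apart with Cdh5 at 7.53, high, and Thr 16 with Zfp975 at 7.96, high.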

How the results depend on the processing

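The labels number the arrays 1 to 40 and do not say which arrays, if any, came from the same mouse. Regions could therefore not be paired by mouse, and the fits to all 40 arrays treat the arrays as independent. Over 17 alternatives the count of called genes was 0 in all but 2: it was 2 without Ala 12 (Cd59a at 1.43 and Entpd4 at -1.25) and 1 without Thr 15 (Glra1 at -1.51). With single arrays left out it thus ran from 0 to 2, with 0 to 1 higher and 0 to 1 lower. The alternative added after seeing the data, without Ala 10 and Ala 12, called 1 gene, 1 lower and 0 higher (Mid1). For each of these called genes, the arrays left out were those of their genotype nearest to the other genotype. The count at an unadjusted p under 0.05 was 540 with the 8 arrays and 266 in the fit to all 40 arrays, where the spread is shared between regions, and 805 with no filter on dim genes, where more genes are tested. The contrast with the other regions called 0 genes in each of its alternatives. Other scaling moved the median difference by -0.0062 (quantile) and -0.0076 (median centring).

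Of 131 named genes, 112 kept their sign in every alternative. With 1 array left out, differences crossed 0 for Mup2 (-0.56 to 0.049), Nr4a3 (-1.54 to 0.16), Nr4a2 (-1.05 to 0.51), Ddit3 (-0.13 to 0.011), Rps28 (-0.18 to 0.0024), Gabra5 (-0.40 to 1.34), Tbr1 (-0.73 to 0.76), Pde1a (-0.045 to 1.36), Gabra6 (-0.18 to 0.022), Thrb (-0.050 to 0.45) and Slc4a1 (-0.015 to 0.22). With array weights Tbr1 was at -0.031. Without Ala 10 and Ala 12 the sign turned for Ttr (0.77), Kl (0.53), Kcnj13 (0.42), Gabra5 (-0.55), Nr4a3 (0.25), Nr4a2 (0.26), Slc7a3 (-0.35), Tbr1 (-1.03), Atf4 (-0.0066), Gabra6 (0.0099), Asns (-0.021), Tiam1 (0.017), Igf2 (0.032) and Slc4a1 (-0.10). The cause was not tested. With 4 arrays a genotype, limma's intervals are about 0.40 log2 units wide on each side at the median gene, and 3759 genes had both genotype means under the negative control medians, where differences depend on background.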

Other observations

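Some other genes, most of them outside the lists, also varied within the Ala arrays. Ala 12 was highest for Pde1a, a calcium-dependent phosphodiesterase gene, at 9.39 against 4.92 to 7.51 on the other 7 arrays. It was also highest for Vxn at 9.99 against 5.42 to 7.04, for Ccn3 at 11.06 against 6.88 to 9.71, and for Neto1, an auxiliary subunit gene of kainate receptors, at 9.77 against 6.26 to 7.75. Ala 12 was lowest for Car12, a carbonic anhydrase gene, at 3.73 against 4.53 to 6.80, and for Atp2a3, a calcium pump gene of Purkinje cells, at 8.65 against 9.61 to 10.66. Rpa3, a subunit of the single-strand DNA binding complex, was lowest in Ala 12 at 6.78 and highest in Ala 10 at 9.30.

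Ala 10 was highest for Slc5a7, the choline transporter gene of cholinergic neurons, at 5.80 against 2.89 to 4.96, and for Dbh, dopamine beta-hydroxylase of noradrenergic neurons, at 6.75 against 4.15 to 6.64. Both belong to the brainstem and spinal list, and both levels lie near or under the negative control medians. These genes were chosen after their values were seen, by their distance from the other 7 arrays, and have no test.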
